A study of Mus musculus with 8 samples.

Results

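Of 26916 cell barcodes from the ascending thoracic aorta of aged mice, 77 met a gate for fibroblasts that held RNA of Dio2, Hhip or Fmod and no RNA of Pi16. The 77 cells were chosen by their own measured counts, in any hashtag state. A barcode had to hold at least 500 genes, at least 1000 UMIs of genes and under 15% mitochondrial UMIs, and 11301 barcodes did (a UMI, or unique molecular identifier, counts 1 captured RNA molecule). Dcn, the gene of decorin, had to make up at least 0.3% of the UMIs, and the smooth muscle genes Myh11 and Tagln together under 0.4%. The counts allowed were 0 UMIs of Pi16, at least 2 of Dio2, Hhip and Fmod summed, at most 2 of Comp and Chad, at most 1 of the endothelial genes Cdh5, Kdr and Cldn5, and at most 2 of the leukocyte genes Ptprc, Cd3d, Cd3e, Cd3g and Rag1. All clauses but those on Pi16, Dio2, Hhip and Fmod were met by 1098 barcodes, the gated fibroblasts. The 77 gated cells were 7.01% of these, with a 95% exact (Clopper-Pearson) interval of 5.57 to 8.69%. The cells they are set against are the Pi16 gate, with at least 1 Pi16 UMI and at most 1 of Dio2, Hhip and Fmod, which held 643 cells or 58.6% of the gated fibroblasts.

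The tissue came from 3 wildtype mice aged 81, 84 and 88 weeks. Younger animals are not analysed here, and strain and sex are not given in the sources used here. The cells of all 3 mice were pooled after barcoded hashtag antibodies had been put on, so the 4 gene expression libraries and 4 hashtag libraries are parts of 1 pool, and the matrix does not keep them apart. Elastase (1 mg/mL) and collagenase II (10 mg/mL) freed the cells at 37 °C over 60 min, and about 15000 viable cells per sample were loaded, per the labels' protocols. All 26916 barcodes were distinct, and they held 900 to 104654 gene UMIs each, with a median of 2975.

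Because the cells were sorted by genes of the same cells and come from 1 pool, differences between gates are given as a description with no test. A level is in CPM, the UMIs of a gene in every 1000000 UMIs of the summed cells. Levels carry 95% exact Poisson intervals, and ratios carry 95% exact conditional intervals. These cover counting error only, not the spread between mice. Values by mouse are those of the sets of cells with exactly 1 hashtag. These held 6, 7 and 9 gated cells and 17, 25 and 16 Pi16 gate cells of the mice of 81, 84 and 88 weeks. The gated sets are small and differ in the kinds of cells they hold, so their values do not separate a spread between mice from either. In pooled cells of a type, fewer cells with a gene and less RNA per cell cannot be told apart from a summed level.

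Fibroblasts of the aortic wall lie mainly in the adventitia, the outer coat, where they make collagen fibrils, elastic fibres and the proteoglycans that bind them. Elastin, from Eln, is laid onto fibrillin microfibrils with the help of fibulins and crosslinked by lysyl oxidase, and most of it in a mature artery is made early in life by smooth muscle. Fmod encodes fibromodulin and Lum encodes lumican, small leucine-rich proteoglycans that sit on collagen fibrils and limit their width. Dio2 encodes the type 2 deiodinase, which turns thyroxine into the active thyroid hormone inside the cell. Hhip encodes the Hedgehog-interacting protein, a membrane protein that binds Hedgehog ligands and is itself a target of the pathway. Cpxm2 encodes a secreted member of the carboxypeptidase E family without peptidase activity, and Pi16, peptidase inhibitor 16, marks fibroblasts of the adventitia of many tissues.

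The promoters of the 3 genes that define the gate are shown because the gate treats them as one group. All 3 had an entry in the RefSeq promoter table (build GRCm38.p6), each with 250 bases before and 50 after the gene's start, read along the gene's strand. The stretches lie at chr12:90738989-90739288 on the minus strand for Dio2, chr8:80057959-80058258 on the minus strand for Hhip and chr1:134037004-134037303 on the plus strand for Fmod. Capitals mark the cAMP response element TGACGTCA and the TATA box TATAAA. Both strands were searched for these and for the GLI motif GACCACCCA, and the matches shown do not overlap.
Dio2 promoter: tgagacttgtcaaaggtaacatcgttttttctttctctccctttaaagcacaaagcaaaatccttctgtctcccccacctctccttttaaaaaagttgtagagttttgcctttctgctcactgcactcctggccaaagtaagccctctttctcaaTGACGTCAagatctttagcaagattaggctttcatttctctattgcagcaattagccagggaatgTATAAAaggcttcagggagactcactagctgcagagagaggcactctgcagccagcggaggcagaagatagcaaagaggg
Hhip promoter: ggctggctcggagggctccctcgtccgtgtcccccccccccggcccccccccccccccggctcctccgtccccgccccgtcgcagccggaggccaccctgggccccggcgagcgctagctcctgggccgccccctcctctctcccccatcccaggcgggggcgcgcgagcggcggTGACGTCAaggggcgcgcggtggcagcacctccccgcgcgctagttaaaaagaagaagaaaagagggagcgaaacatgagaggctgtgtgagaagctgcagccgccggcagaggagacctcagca
Fmod promoter: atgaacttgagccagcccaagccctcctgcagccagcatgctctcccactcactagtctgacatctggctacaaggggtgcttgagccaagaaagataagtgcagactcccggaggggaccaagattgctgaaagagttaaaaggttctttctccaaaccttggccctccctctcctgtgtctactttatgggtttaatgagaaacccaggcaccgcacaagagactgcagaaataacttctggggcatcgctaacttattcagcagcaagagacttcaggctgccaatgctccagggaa

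Dio2 and Hhip each held 1 cAMP response element, which 588 of 32851 promoters of this length held (1.79%). Dio2 also held a TATA box, as did 4473 promoters (13.6%). The Fmod stretch held neither motif, and none of the 3 held the GLI motif, which 83 promoters held (0.253%). A match says that these letters are in the window and nothing on what binds there.

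The hashtags that tie a cell to a mouse are antibody barcodes, printed here as the deposited feature table gives them, since the values by mouse rest on them.
Hashtag 1, mouse of 81 weeks: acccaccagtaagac
Hashtag 2, mouse of 84 weeks: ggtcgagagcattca
Hashtag 3, mouse of 88 weeks: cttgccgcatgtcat

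The 77 gated cells were not of 1 kind. Cells past the filters, without those of more than 1 hashtag, were clustered on variable genes, with the gate genes, Lum and Cpxm2 left out. Of the 77, 46 lay in a fibroblast-like cluster of 598 cells led by Serpinf1, Lum and Pdgfra (59.7%, exact interval 47.9 to 70.8%). Another 13 lay in a mesothelial-like cluster of 54 cells led by Upk3b, Msln and Lrrn4, genes of the sheet of cells that lines body cavities. A further 12 lay in a cluster of 100 cells led by Prg4, Comp and Tbx20, 3 in a cluster of 26 cells led by Tbata, Ccl25 and Prss16, and 3 in other clusters. The gate thus took 24.1% of the mesothelial-like cluster (13.5 to 37.6%), 12% of the Prg4 Comp cluster and 7.69% of the fibroblast-like cluster.

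The label of these cells names Dio2, Hhip, Fmod, Lum and Cpxm2 as markers and calls them elastin-rich fibroblasts. The data go against it in part, since 13 cells carried mesothelial RNA and little else of the label. In these 13 cells Dio2, Hhip and Cpxm2 were at 0 UMIs, Lum had 1 UMI, and the 6 mesothelial markers summed to 6528 CPM, with 2600 to 8209 CPM in each cell. Summed, the 46 cells of the fibroblast-like cluster held all 5 label genes, but only 6 of them held all 3 of Dio2, Hhip and Fmod. Of the 6 mesothelial markers 5 were at 0 there, with a sum of 2.91 CPM, against 21.9 CPM in the Pi16 gate. The rule chose cells by those 3 genes, and the clustering did not leave out the mesothelial markers. Neither value is therefore support for the label. The 10 fibroblast markers summed to 36374 CPM in the 46 cells and 6778 CPM in the 13, against 42847 CPM in the Pi16 gate. Values below are therefore given for all 77 gated cells and for the 46, a subset chosen after these values were seen.

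**Figure D1:**
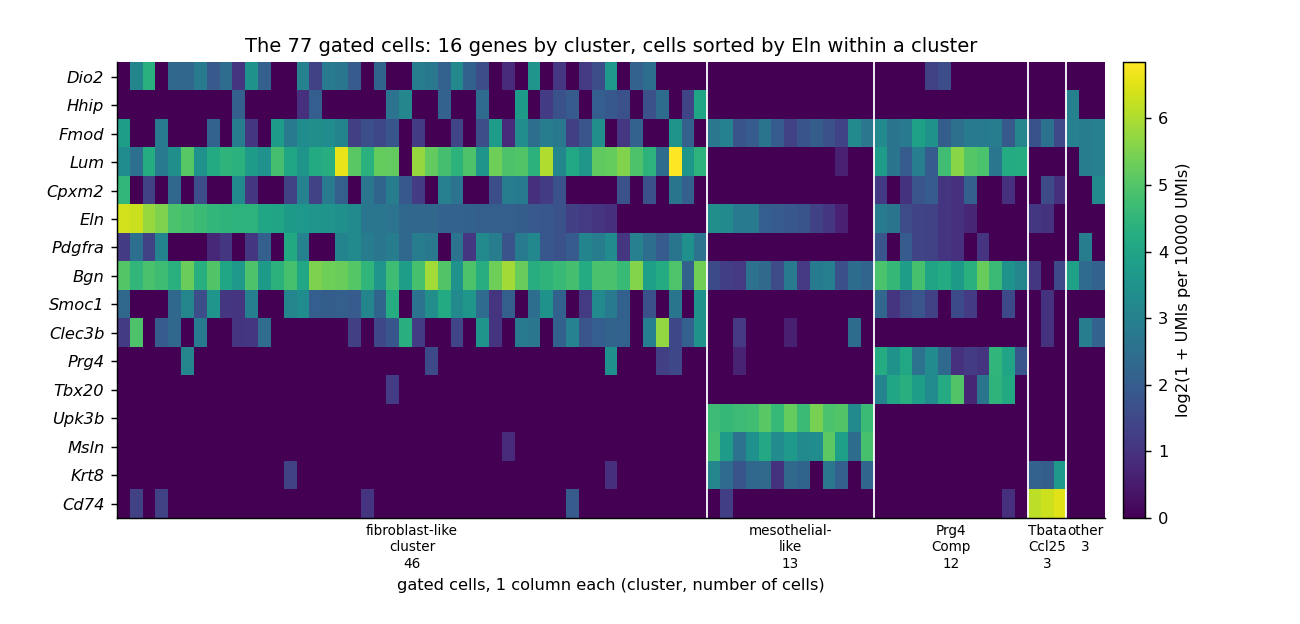
Level of 16 genes in each of the 77 gated cells, as log2 of 1 plus UMIs per 10000 UMIs, with 1 column per cell, cells grouped by cluster and sorted by Eln within it. The 13 mesothelial-like cells show Fmod, Upk3b and Msln but no Dio2, Hhip or Cpxm2, and the 3 cells of the Tbata Ccl25 cluster stand out by Cd74.

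Of the genes that opened the gate, Fmod was present in 62 of the 77 cells, Dio2 in 32 and Hhip in 19. Fmod was the only one of the 3 in 35 cells, and 6 cells held all 3. All 13 mesothelial-like cells and all 3 cells of the Tbata Ccl25 cluster had passed on Fmod alone, as had 10 of the 12 cells of the Prg4 Comp cluster, where the other 2 also held Dio2. In the fibroblast-like cluster the 3 genes were mixed. There 31 of 46 cells held Fmod, 30 held Dio2 and 18 held Hhip, and 7 held Fmod alone, 9 Dio2 alone and 3 Hhip alone. The most frequent pair was Dio2 with Fmod, in 12 cells.

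Fmod RNA was found widely beyond the gated cells. It stood at 990 CPM in 87 Dcn-positive cells with at least 3 UMIs of Comp and Chad, genes of cartilage and tendon, at 755 CPM in the whole Prg4 Comp cluster and at 305 CPM in the 41 cells of the mesothelial-like cluster outside the gate. Dio2 and Hhip were also found in the Comp and Chad cells, Dio2 at 191 CPM (160 to 226) beside 197 CPM in the gated cells, and Hhip at 142 CPM (116 to 172) beside 74.6 CPM in the gated cells. In the 41 mesothelial-like cells Dio2 had 1 UMI and Hhip none.

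By mouse, Fmod stood at 515, 256 and 320 CPM in gated cells of the mice of 81, 84 and 88 weeks, against 0, 0 and 8.26 CPM in Pi16 gate cells. Dio2 stood at 95.4, 0 and 221 CPM in gated cells, against 14.5, 10.9 and 0 CPM in Pi16 gate cells. Hhip stood at 0, 56.8 and 73.7 CPM, against 0, 10.9 and 8.26 CPM. The rule used these 3 genes, so the values only describe the cells it took. Fmod was present in gated cells of all 3 mice, Dio2 in those of 81 and 88 weeks and Hhip in those of 84 and 88 weeks.

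Free RNA in droplets can give a UMI to a cell that does not make the gene, and cells of the immune gate (at least 5 UMIs of the leukocyte genes) show its level. The rule required at least 2 UMIs of Dio2, Hhip and Fmod in every gated cell, so the shares of gated cells with these genes were set by the choice of cells and bear on no question of free RNA. A Dio2 UMI was found in 41.6% of the gated cells (exact interval 30.4 to 53.4%), against 1.81% of 2205 immune gate cells. Hhip was found in 24.7% of the gated cells and 0.68% of the immune gate cells, and Fmod in 80.5% and 0.68%. The median depth was 7960 UMIs in the gated cells (1430 to 19303) and 4047 in the immune gate. With every cell thinned to 1000 UMIs the shares in gated and immune gate cells were 16.9% and 0.408% for Dio2, 7.79% and 0.272% for Hhip, and 35.1% and 0.136% for Fmod.

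The clause on Pi16 split cells of 1 cluster. Of 299 gated fibroblasts with at least 2 UMIs of Dio2, Hhip and Fmod, 222 (74.2%, exact interval 68.9 to 79.1%) held a Pi16 UMI and stayed outside the gate, and 182 of those 222 lay in the same fibroblast-like cluster as 46 of the gated cells. Just outside, 33 cells with exactly 1 Pi16 UMI and at least 2 of the gate genes had Eln at 1108 CPM (979 to 1248), and 28 of them lay in that cluster. On the other side, the 12 gated cells with exactly 2 UMIs of the gate genes had Eln at 535 CPM (389 to 718), and 25 cells just outside with 1 such UMI and no Pi16 had 175 CPM (118 to 249). Those with no UMI of either kind, 131 cells, had 312 CPM (274 to 353).

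Eln, the gene in the label that the rule did not use, stood at 776 CPM (709 to 848) in the 77 gated cells, against 299 CPM (283 to 314) in the Pi16 gate. The ratio was 2.60 (2.34 to 2.88). In the 46 cells of the fibroblast-like cluster Eln stood at 1241 CPM (1126 to 1364), 4.16 times the Pi16 gate (3.72 to 4.63). The mesothelial-like gated cells had 336 CPM (243 to 453) and those of the Prg4 Comp cluster 153 CPM (90.8 to 242).

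In the sum, that level was shared with cells outside the gate. The 182 cells of the same cluster that also held Pi16 had Eln at 1246 CPM (1190 to 1305), and the ratio of the 46 cells to them was 0.996 (0.894 to 1.11). The cell medians differed, with 637 CPM in the 95 of the 182 with Hhip and 788 CPM in the 87 without it, against 389 CPM in the 46. The 105 Pi16 gate cells of that cluster had 489 CPM (436 to 546). Against smooth muscle, taken as 4724 cells with Myh11 and Tagln at 1% of the UMIs or more, the 77 gated cells had 0.675 times the Eln level (0.616 to 0.738), with 776 against 1150 CPM. The 46 cells alone had 1.08 times that level in the sum, while the median cell had 389 CPM, against 886 CPM in smooth muscle. A ratio this near 1 has no certain direction, since TMM scaling moved ratios of the 77 cells over smooth muscle by -0.29 on the log2 scale.

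Eln differed widely from cell to cell. It was found in 60 of the 77 gated cells (77.9%) at a median of 306 CPM per cell and a highest value of 8138, against 62.7% of the Pi16 gate cells at a median of 140. In the immune gate 17.1% of cells held an Eln UMI. The 10 gated cells with the most Eln UMIs held 60.5% of all Eln UMIs of the gate. The summed level thus rests largely on few cells. Without these 10 the gated cells had 351 CPM, 1.17 times the Pi16 gate. That fall in the ratio was set by the choice, since the 10 were picked by Eln and no Pi16 gate cell was left out. All 10 lay in the fibroblast-like cluster, where they held 69.5% of the Eln UMIs of the 46 cells, and 9 carried no hashtag. The 10 stood at 3713 CPM (3302 to 4161) and the other 36 gated cells of the cluster at 493 CPM (412 to 585), beside 489 CPM in its Pi16 gate cells. Beside this, the 10 smooth muscle markers summed to 3224 CPM in those 10 cells and 2397 CPM in the other 36 gated cells of the cluster. The cell medians went the other way, with 1545 CPM in the 10 and 1604 CPM in the 36. In all gated cells the markers summed to 1901 CPM, against 1034 CPM in the Pi16 gate. Their part in the Eln level was not tested.

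**Figure D2:**
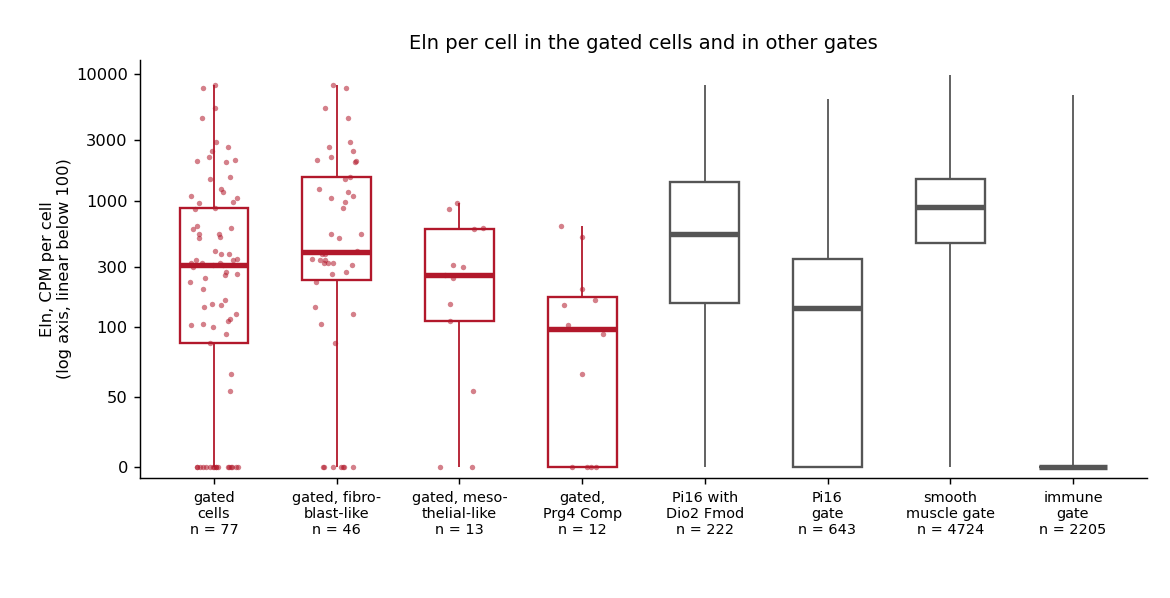
Eln in CPM per cell, on an axis that is logarithmic above 100 and linear below, for gated cells (red, all and by cluster) and for the other gates (grey). Boxes span the quartiles with a bar at the median, lines run to the lowest and highest cell, and dots are single gated cells. The medians are 306 CPM in the gated cells, 540 CPM in cells with both Pi16 and the gate genes and 140 CPM in the Pi16 gate.

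By mouse, Eln stood at 649, 114 and 442 CPM in gated cells of the mice of 81, 84 and 88 weeks, against 455, 180 and 273 CPM in Pi16 gate cells. It was higher in gated cells of 2 mice and lower in that of 84 weeks, and the ranges of the 2 gates over the mice overlapped. The 55 gated cells with no hashtag had 965 CPM, against 300 CPM in the 578 such cells of the Pi16 gate. The hashtagged sets are small and mixed, since 9 of their 22 gated cells were mesothelial-like. Of the gated cells of the mice of 81, 84 and 88 weeks, 2 of 6, 1 of 7 and 4 of 9 lay in the fibroblast-like cluster.

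Within the 46 cells Eln can be set out by the gate gene a cell held, as a description, since the rule used these genes. The 18 cells with Hhip had 445 CPM (338 to 575) with a cell median of 243, and the 28 without it 1728 CPM (1556 to 1914) with a cell median of 1014. Of the 10 cells with the most Eln, 9 held no Hhip. The 30 cells with Dio2 had 1266 CPM (1127 to 1418) with a cell median of 704, and the 16 without it 1183 CPM (986 to 1409) with a cell median of 312. The 31 with Fmod had 1034 CPM and the 15 without it 1776 CPM, but their cell medians were 378 and 399 CPM, so for Dio2 and Fmod the sums and the medians gave different pictures. The summed smooth muscle markers stood at 1818 CPM in the cells with Hhip and 3061 CPM in those without it, with cell medians of 1460 and 1682 CPM. The part of these markers in the difference was not tested. Among the 182 cells that also held Pi16, Eln stood at 1278 CPM (1197 to 1362) in 95 cells with Hhip and 1215 CPM (1136 to 1297) in 87 without it.

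Lum, a fibroblast gene that the rule also left out, stood at 1758 CPM in the gated cells against 1359 CPM in the Pi16 gate (ratio 1.29, 1.21 to 1.38). It was at 2586 CPM in the 46 cells and 1804 CPM in the 12 of the Prg4 Comp cluster. By mouse it stood at 1928, 114 and 1167 CPM in gated cells, against 1070, 1424 and 818 CPM in Pi16 gate cells, and the gated set of the mouse of 84 weeks, the lowest, held 1 cell of the fibroblast-like cluster among its 7. Cpxm2 stood at 181 CPM against 50.1 CPM (ratio 3.61, 2.87 to 4.53) and at 265 CPM in the 46 cells. By mouse it was at 57.3, 99.5 and 61.4 CPM in gated cells, against 101, 38.2 and 66.1 CPM, which is higher in the mouse of 84 weeks alone. Neither gene was specific to the gate, since the Comp and Chad cells had Lum at 2276 CPM and Cpxm2 at 232 CPM. In cells of the fibroblast-like cluster that also held Pi16, Cpxm2 stood at 334 CPM and Lum at 1878 CPM. The ratio of the 46 to those cells was 0.794 (0.628 to 0.995) for Cpxm2 and 1.38 (1.28 to 1.49) for Lum.

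Across all genes with at least 50 UMIs over both gates and 20 CPM in the higher, 522 of 6668 were more than 2-fold higher in the 77 gated cells than in the Pi16 gate (7.83%) and 385 more than 2-fold lower (5.77%). For the 46 cells of the fibroblast-like cluster it was 515 of 6659 higher (7.73%) and 556 lower (8.35%). Only 105 of the 643 Pi16 gate cells lie in that cluster. Ratios and list counts of the 46 over the Pi16 gate, here and below, therefore do not separate the cluster from the gate. The median log2 ratio over all genes was 0.07 and 0.02. These shares are what the counts of each gene group should be read against. TMM scaling moved every log2 ratio over the Pi16 gate by -0.15 and over smooth muscle by -0.29, so a ratio near 1 has no certain direction.

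**Figure D3:**
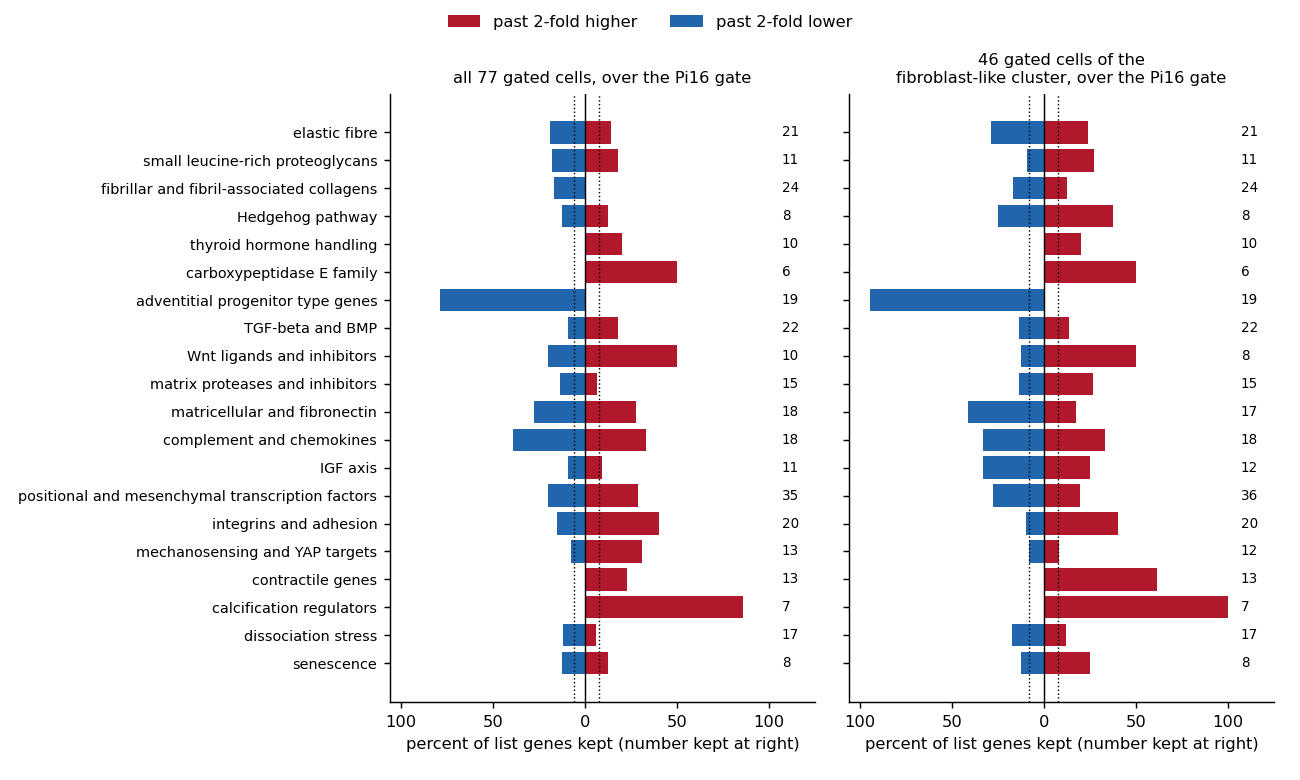
Percent of each gene list's members past 2-fold higher (red, to the right) or lower (blue, to the left) over the Pi16 gate, for all 77 gated cells and for the 46 of the fibroblast-like cluster. The number at the right is how many members passed the filter on low counts, and dotted lines mark the shares over all genes, 7.83 and 5.77% on the left and 7.73 and 8.35% on the right. Calcification regulators reach furthest to the right and adventitial progenitor type genes furthest to the left.

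Elastic fibre genes lay on both sides. Of 24 genes 21 passed the filter, and 3 were past 2-fold higher and 4 lower in the 77 cells, with 5 higher and 6 lower in the 46. The list's median log2 ratio was -0.04 and 0.07. Higher beside Eln were Ltbp2, a latent TGF-beta binding protein found on elastic fibres, at 92.0 against 9.20 CPM (ratio 10.0, 6.66 to 15.1), and Adamtsl2, which binds fibrillin, at 65.1 against 27.8 CPM (2.34, 1.61 to 3.34). The gated sets of the 3 mice held 52386, 70368 and 81377 UMIs of all genes, so Ltbp2 had few UMIs in each. It was higher in gated cells of all 3 mice, at 38.2, 14.2 and 36.9 CPM against 14.5, 0 and 0 CPM. Adamtsl2 was not, with 0, 0 and 12.3 CPM against 57.8, 5.46 and 16.5 CPM. In the 46 cells Fbln5, the fibulin that carries elastin to the microfibril, was past 2-fold too, at 853 CPM (2.21, 1.95 to 2.50), as was the crosslinking enzyme Lox at 154 CPM (2.47, 1.81 to 3.31). Over all 77 their ratios were 1.72 and 1.52. Fbln5 was higher still, at 1299 CPM, in the cells of the same cluster that also held Pi16. The ratio of the 46 to those cells was 0.657 (0.579 to 0.743).

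Among genes of the microfibrils some were lower and others within 2-fold. Fbn1, which encodes fibrillin, stood at 265 CPM in gated cells against 1105 CPM in the Pi16 gate (ratio 0.240, 0.204 to 0.280). Mfap5, a microfibril protein, stood at 528 against 2301 CPM (0.230, 0.205 to 0.256), and Fbln2, a fibulin of microfibrils and basement membranes, at 129 against 605 CPM (0.212, 0.168 to 0.265). Emilin2 stood at 3.17 against 170 CPM. Mfap5 by mouse was at 191, 99.5 and 369 CPM against 2422, 2144 and 2173 CPM, and Fbn1 at 191, 56.8 and 111 CPM against 1135, 1238 and 727 CPM, so for both genes every gated set lay below every Pi16 gate set. Within 2-fold were the microfibril proteins Mfap2 and Mfap4, with ratios of 0.856 and 1.14 (0.943 and 1.96 in the 46), and Ltbp4 and Loxl1, with 0.971 and 0.799. Efemp1 shows how the mixed cells acted on the sum. It stood at 1259 CPM in the mesothelial-like gated cells and 114 CPM in the 46, against 370 CPM in the Pi16 gate.

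**Figure D4:**
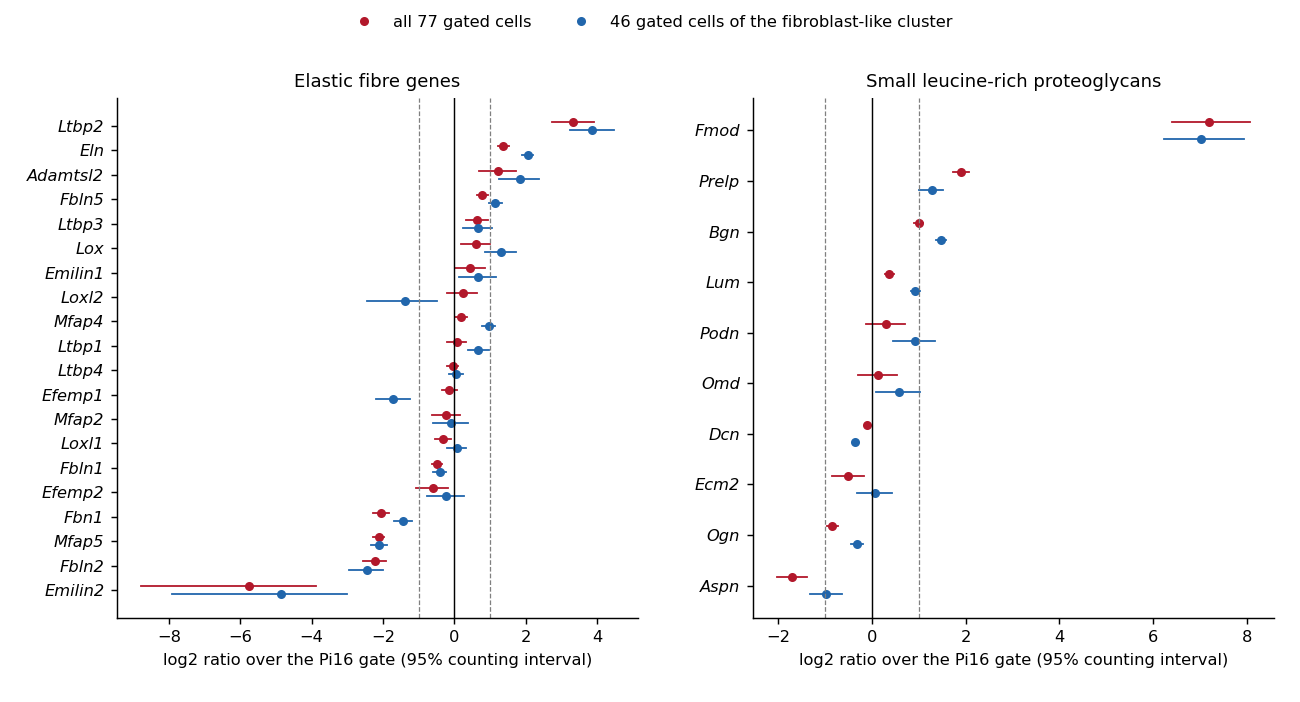
Log2 ratio over the Pi16 gate, with 95% counting intervals, of elastic fibre genes (left) and small leucine-rich proteoglycans (right), for all 77 gated cells (red) and the 46 of the fibroblast-like cluster (blue). Dashed lines mark 2-fold and the solid line no difference. Ltbp2 and Eln lie to the right and Fbn1, Mfap5, Fbln2 and Emilin2 to the left, and Loxl2 and Efemp1 change side or size between the 2 sets of cells.

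Of the small leucine-rich proteoglycans 11 passed the filter, and 2 were past 2-fold higher and 2 lower in the 77 cells (3 and 1 in the 46). One of the higher is Fmod, which the rule used. The other is Prelp, at 673 against 179 CPM (ratio 3.75, 3.33 to 4.22), with 344, 227 and 406 CPM in gated cells by mouse against 239, 218 and 240 CPM. Prelp was carried in part by the Prg4 Comp cells, at 2128 CPM, and stood at 434 CPM in the 46. Bgn, which encodes biglycan, stood at 1901 against 952 CPM (2.00, 1.87 to 2.13) and at 2638 CPM in the 46. Lower were Aspn, encoding asporin, at 135 against 441 CPM (0.306, 0.243 to 0.380), and Epyc, encoding epiphycan, at 0 against 61.6 CPM. Ogn stood at 1044 against 1882 CPM. Dcn, the clause on which every cell entered, was at 13326 against 14238 CPM.

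Among collagens and their helpers 24 passed, and none was past 2-fold higher and 4 lower in the 77 cells, with 3 higher and 4 lower in the 46. The chains of type I collagen, Col1a1 at 1715 against 1387 CPM and Col1a2 at 2660 against 2334 CPM, and of type III collagen, Col3a1 at 2923 against 3746 CPM, stayed within 2-fold. Lower were Pcolce2, which enhances procollagen cleavage, at 200 against 886 CPM (0.226, 0.187 to 0.269), Col5a3 at 20.6 against 98.8 CPM, and Col14a1 at 736 against 1479 CPM (0.498, 0.452 to 0.547). For Pcolce2 the mice had 38.2, 256 and 209 CPM in gated cells against 1005, 769 and 777 CPM. Higher in the 46 were the type IV chain Col4a2 at 157 CPM, Col16a1 at 90.3 CPM and the lysyl hydroxylase Plod2 at 178 CPM, against 74.2, 42.5 and 75.3 CPM in the Pi16 gate.

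In the Hedgehog pathway 8 of 20 genes passed the filter, with 1 past 2-fold higher and 1 lower in the 77 cells and 3 higher and 2 lower in the 46, and a median log2 ratio of 0.41 and -0.10. Hhip, which the rule used, is counted among the higher. In the 46 cells Ptch1, the Hedgehog receptor and a target of the pathway, stood at 163 CPM against 75.7 CPM (ratio 2.16, 1.60 to 2.86), and the co-receptor Boc at 137 against 52.4 CPM (2.61, 1.87 to 3.58). Over all 77 they stood at 113 and 87.3 CPM, within 2-fold. By mouse Ptch1 was at 38.2, 99.5 and 123 CPM against 72.3, 65.5 and 82.6 CPM, so it was higher in 2 of 3. The co-receptor Gas1 stood at 547 against 362 CPM and at 259 CPM in the 46. Disp1, which releases the ligand, was past 2-fold lower at 6.35 against 21.9 CPM. The signal transducer Smo stood at 60.3 against 50.7 CPM and the transcription factor Gli3 at 27.0 against 29.4 CPM, but Gli3 stood at 11.6 CPM in the 46 (ratio 0.396, 0.106 to 1.03), past 2-fold lower on 4 UMIs.

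Of 10 thyroid hormone genes that passed, 2 were past 2-fold higher and none lower, in the 77 and in the 46 alike. One is Dio2, which the rule used. The other is Thrb, a nuclear thyroid hormone receptor, at 71.4 against 17.6 CPM (ratio 4.06, 2.77 to 5.89). It was higher in all 3 mice, at 57.3, 28.4 and 73.7 CPM against 21.7, 5.46 and 8.26 CPM, and stood at 58.2 CPM in the 46. The other receptor, Thra, stood at 229 against 174 CPM. Klf9, a known target of the hormone, stood at 357 against 354 CPM.

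In the family of Cpxm2, 6 genes passed, and 3 were past 2-fold higher and none lower in both sets of cells. Cpe, which trims peptide hormones and growth factors, stood at 582 against 135 CPM (ratio 4.31, 3.79 to 4.91) and at 649 CPM in the 46. It was at 1012, 242 and 553 CPM in the mice's gated cells against 130, 158 and 49.6 CPM, above the Pi16 gate in each, and at 1516 CPM in smooth muscle. Cpz, an enzyme with a Wnt-binding domain, stood at 36.5 against 18.2 CPM but was higher in 1 of 3 mice. Cpxm1 and Aebp1, other members of the family, stood at 176 against 178 CPM and 1458 against 1203 CPM.

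Regulators of calcification were the list with the greatest share higher. Of 18 genes 7 passed, and 6 were past 2-fold higher in the 77 cells and all 7 in the 46, with none lower and a median log2 ratio of 1.32 and 1.68. Mgp, matrix Gla protein, which inhibits mineral in arteries, stood at 24764 against 8520 CPM and at 36685 CPM in the 46. Its level was largely shared with cells of the same cluster that also held Pi16. There it stood at 35096 CPM in 115 cells with Dio2 and 20475 CPM in 67 without it. Gas6, another Gla protein and the ligand of the receptor Axl, stood at 1415 against 355 CPM (ratio 3.99, 3.68 to 4.33). By mouse Gas6 was at 1451, 725 and 1610 CPM in gated cells against 311, 360 and 471 CPM, so the 3 gated sets lay above the 3 Pi16 gate sets. Ank, which moves pyrophosphate out of the cell, stood at 79.3 against 19.8 CPM, and Sost, an inhibitor of Wnt signalling, at 60.3 against 29.0 CPM. Mgp, Ank and Sost, named here after their values were seen, were higher in gated cells of 1, 1 and 2 of the 3 mice. Beside this list the 10 smooth muscle markers summed to 1901 CPM in the 77 cells and 2589 CPM in the 46, against 1034 CPM in the Pi16 gate, and their part in it was not tested. Axl itself stood at 108 against 448 CPM (0.241, 0.186 to 0.307).

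Most genes of the Pi16 type were lower. Of 19 that passed, 15 were past 2-fold lower in the 77 cells and 18 in the 46, with none higher and a median log2 ratio of -2.45 and -2.92. Pi16 itself was set to 0 by the rule, and a gate that removes Pi16 removes genes that go with it, so the count is a description of the gate. Clec3b, encoding tetranectin, stood at 232 against 3882 CPM, with 38.2, 568 and 246 CPM by mouse against 3434, 4130 and 3371 CPM. Ly6c1 stood at 17.5 against 546 CPM and Cd248, endosialin, at 55.5 against 553 CPM. Dpp4, Igfbp5 and Igfbp6 passed 2-fold in the 46 alone, where Dpp4 was at 0 UMIs and Igfbp6 at 183 CPM, against 148 and 1303 CPM in the Pi16 gate.

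Among transcription factors 35 passed, with 10 past 2-fold higher and 7 lower in the 77 cells, and 7 of 36 higher and 10 lower in the 46. Lower in both were Ebf1 at 132 against 735 CPM (ratio 0.179, 0.142 to 0.223), Ebf2 at 3.17 against 209 CPM and Klf4 at 100 against 381 CPM. All 3 had the same direction in every mouse, which the rule for naming list genes asked for. The largest ratios higher came from the other clusters. Tbx20, a cardiac T-box factor, stood at 252 against 22.9 CPM over the 77 and at 2.91 CPM in the 46, and Meox1, a factor of early mesoderm, at 173 against 28.8 CPM and 5.82 CPM. Both were higher in 1 of 3 mice. Higher in the 46 were the forkhead factors Foxs1 at 40.8 CPM, Foxd1 at 32.0 CPM and Foxc1 at 55.3 CPM, against 10.4, 10.4 and 25.8 CPM in the Pi16 gate.

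Of the TGF-beta and BMP genes 22 passed, with 4 past 2-fold higher and 2 lower in the 77 cells and 3 and 3 in the 46. Bmp4, a ligand, stood at 92.0 against 40.1 CPM (ratio 2.30, 1.68 to 3.09) and at 81.5 CPM in the 46, and Inhba, which makes activin, at 46.0 against 13.9 CPM and 61.2 CPM. Id1, a BMP target, stood at 195 against 48.5 CPM (4.03, 3.21 to 5.03) but at 81.5 CPM in the 46, within 2-fold. Fst, an inhibitor of activin, at 114 against 321 CPM, and Fstl1, at 473 against 1147 CPM, were lower, each in all 3 mice.

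Of the Wnt ligands and inhibitors 10 passed, with 5 past 2-fold higher and 2 lower. Dkk3 stood at 630 against 126 CPM (ratio 5.01, 4.40 to 5.69), Rspo3, which boosts Wnt signalling, at 127 against 22.3 CPM and the inhibitor Frzb at 58.7 against 6.75 CPM. These 3 were also past 2-fold in the 46, at 451, 178 and 64.1 CPM. By mouse Dkk3 was higher in all 3, Rspo3 in 1 and Frzb in none. The inhibitor Wif1, at 116 against 3.48 CPM, and the agonist Rspo1, at 100 against 16.4 CPM, were not, at 2.91 and 5.82 CPM in the 46. Sfrp1 was lower at 116 against 471 CPM (0.246, 0.192 to 0.311), and Sfrp2 stood at 500 against 280 CPM, reaching 801 CPM in the 46.

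Matricellular genes, which tune how cells meet the matrix, were 5 higher and 5 lower of 18 in the 77 cells, and 3 higher and 7 lower of 17 in the 46. Smoc1, a calcium-binding matrix protein, stood at 281 against 23.5 CPM and at 466 CPM in the 46. In cells of the same cluster that also held Pi16, Smoc1 stood at 277 CPM in 115 with Dio2 and 320 CPM in 67 without it. Ccn5 stood at 84.1 against 19.8 CPM and 151 CPM, and Ccn2, a target of YAP, at 524 against 222 CPM and 667 CPM. By mouse Smoc1 and Ccn2 were higher in 1 of 3 and Ccn5 in none. Thbs1, thrombospondin, stood at 259 against 14.3 CPM but was at 0 UMIs in the 46 and at 1302 CPM in the Prg4 Comp cells. Fn1, fibronectin, was lower at 100 against 1056 CPM (ratio 0.0946, 0.0726 to 0.121), and Tnxb, tenascin X, at 76.2 against 589 CPM (0.129, 0.0952 to 0.172). For Fn1 the mice had 57.3, 56.8 and 24.6 CPM in gated cells against 1019, 933 and 529 CPM.

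Of the matrix proteases and their inhibitors 15 passed, with 1 past 2-fold higher and 2 lower in the 77 cells, and 4 higher and 2 lower in the 46. The inhibitor Timp1 stood at 138 against 68.7 CPM. In the 46 the stromelysin gene Mmp3 was at 827 CPM and the inhibitor Timp3 at 3142 CPM, against 273 and 1232 CPM in the Pi16 gate. The aggrecanase Adamts5 was lower at 244 against 785 CPM (ratio 0.311, 0.263 to 0.366) and the protease Htra3 at 108 against 424 CPM.

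Of the integrins and adhesion genes 20 passed, with 8 past 2-fold higher in either set of cells and 3 and 2 lower. Cdh11, the cadherin of mesenchymal cells, stood at 263 against 50.1 CPM (ratio 5.26, 4.29 to 6.43), with 592, 369 and 283 CPM by mouse against 21.7, 43.6 and 116 CPM, so the gated sets lay above the Pi16 gate sets. Itga8 stood at 143 against 50.5 CPM, Itgb8 at 60.3 against 12.7 CPM and the receptor Pdgfrb at 246 against 97.3 CPM, with 393 CPM in the 46. Itgb8 was higher in all 3 mice, Itga8 and Pdgfrb in 2. Cd34 was lower at 268 against 1035 CPM. Pdgfra, the fibroblast receptor, stood at 263 against 460 CPM in the 77 and at 443 CPM in the 46.

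Of 18 complement and chemokine genes that passed, 6 were past 2-fold higher and 7 lower in the 77 cells, and 6 and 6 in the 46. Ccl19, which draws lymphocytes, stood at 157 against 58.3 CPM and at 268 CPM in the 46. Clu, at 363 against 52.4 CPM, and C2, at 163 against 27.2 CPM, stood at 111 and 32.0 CPM in the 46. Lower were C3, the central complement protein, at 885 against 2256 CPM, the complement regulator Cd55 at 27.0 against 345 CPM, Il33 at 49.2 against 261 CPM and the eosinophil chemokine Ccl11 at 23.8 against 256 CPM (ratio 0.0928, 0.0518 to 0.154).

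Of 13 contractile genes 3 were past 2-fold higher and none lower in the 77 cells, and 8 in the 46, although the rule capped Myh11 and Tagln. Lmod1, leiomodin, stood at 151 against 42.1 CPM, Mylk, myosin light chain kinase, at 114 against 37.8 CPM and Smtn, smoothelin, at 100 against 46.4 CPM (ratio 2.15, 1.60 to 2.86). By mouse Lmod1 and Mylk were higher in 1 of 3 and Smtn in all 3. In the 46 they stood at 236, 178 and 128 CPM, and Acta2 at 984 CPM against 405 CPM. The smooth muscle gate had Acta2 at 17932 CPM and Myh11 at 5553 CPM, and the 46 cells had Myh11 at 221 CPM. The 10 smooth muscle markers summed to 2589 CPM in the 46, with 306 to 14651 CPM per cell and a median of 1604, against 1034 CPM in the Pi16 gate with a median of 856 per cell, and to 1408 CPM in the immune gate. The 7 pericyte markers summed to 839 CPM in the 46 and 292 CPM in the Pi16 gate. Within the same cluster they summed to 686 CPM in the Pi16 gate cells and 786 CPM in the cells with both Pi16 and the gate genes. Their part in these ratios was not tested.

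Mechanosensing genes were 4 higher and 1 lower of 13, but 1 and 1 of 12 in the 46, and the stretch channel Piezo1 stood at 52.4 against 17.4 CPM over the 77 and 23.3 CPM in the 46. The IGF axis was 1 higher and 1 lower of 11, and 3 higher and 4 lower of 12 in the 46. Senescence genes were 1 and 1 of 8, with the cell cycle inhibitor Cdkn1c at 102 against 252 CPM and Cdkn1a at 132 against 126 CPM. Immediate early and heat shock genes were 1 higher and 2 lower of 17, with Jun at 124 against 282 CPM.

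The genes with the largest ratios over the highest of the other gates (Pi16, smooth muscle, endothelial, immune, and Comp and Chad) were mostly those of the mesothelial-like cells. They included Muc16, Upk3b, Msln, Lrrn4, Upk1b, Gpm6a and Krt19, at 117 to 581 CPM in the 77. In the 46 cells 5 of these 7 were at 0 UMIs, Msln stood at 2.91 CPM and Gpm6a at 8.74 CPM. Cd74, an invariant chain of antigen presentation, stood at 390 against 7.57 CPM, and at 8094 CPM in the 3 cells of the Tbata Ccl25 cluster against 14.6 CPM in the 46. At the other end Pla1a, a phospholipase, stood at 1.59 against 158 CPM, Opcml at 6.35 against 184 CPM, Plac8 at 7.93 against 180 CPM and Tppp3 at 15.9 against 277 CPM, and the 4 genes stood at 2.91 to 20.4 CPM in the 46.

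Cells with the gate genes and Pi16 together differed from the gated cells in fewer genes. Over these 222 cells, 206 of 5986 genes were past 2-fold higher in the 77 gated cells (3.44%) and 165 lower (2.76%). With both sides held to the fibroblast-like cluster, 54 of 4773 genes were past 2-fold higher in the 46 gated cells than in the 182 with Pi16 (1.13%) and 130 lower (2.72%). Dio2 stood at 352 and 345 CPM (ratio 1.02, 0.831 to 1.25), Fmod at 373 and 405 CPM, Ltbp2 at 134 and 120 CPM and Bgn at 2638 and 2621 CPM. Higher in the gated cells were Gas6, at 1887 against 1035 CPM (1.82, 1.66 to 2.00), Cpe, at 649 against 425 CPM (1.53, 1.31 to 1.78), and Smtn, at 128 against 63.2 CPM (2.03, 1.38 to 2.93), beside summed smooth muscle markers of 2589 against 1312 CPM. Lower were Clec3b, at 396 against 1094 CPM (0.362, 0.302 to 0.432), Mfap5, at 533 against 1432 CPM (0.372, 0.318 to 0.433), Mfap4, at 859 against 1684 CPM (0.510, 0.451 to 0.576), and Hhip, at 134 against 271 CPM.

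Hashtags were found on few gated fibroblasts. Exactly 1 hashtag was called in 22 of the 77 gated cells (28.6%, exact interval 18.8 to 40.0%), against 58 of 643 Pi16 gate cells (9.02%, 6.92 to 11.5%). The other 55 gated cells had none. By cluster the share was 9 of 13 in the mesothelial-like cells (69.2%, 38.6 to 90.9%), 7 of 46 in the fibroblast-like cells (15.2%, 6.34 to 28.9%) and 1 of 12 in the Prg4 Comp cells. It was 10.2% in the smooth muscle gate, 82.8% in the endothelial gate and 83.9% in the immune gate, so the share went with the kind of cell, and the 46 cells lay near the other fibroblasts.

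**Figure D5:**
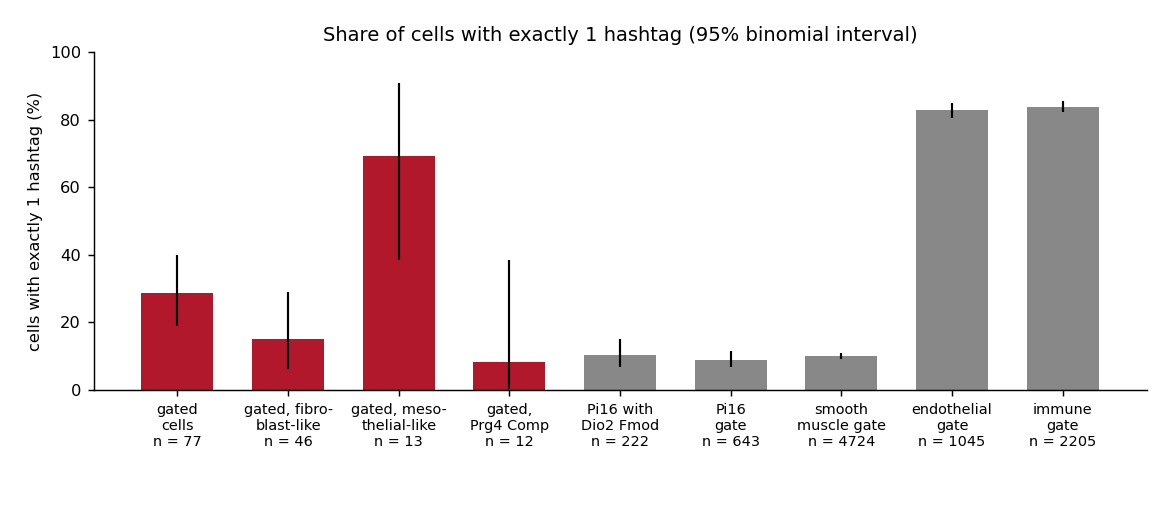
Percent of cells with exactly 1 hashtag, with 95% exact binomial intervals, in gated cells (red, all and by cluster) and in other gates (grey). The share is 28.6% in the 77 gated cells and 9.02% in the Pi16 gate, and the mesothelial-like gated cells, at 69.2%, lie nearer to the endothelial and immune gates than to the fibroblasts.

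Depth was close in the gated cells and the Pi16 gate, while the smooth muscle gate was deeper, with a median of 11385.5 UMIs, and the immune gate shallower. The median was 7960 UMIs and 2703 genes per gated cell, against 7430 UMIs and 2555 genes in the Pi16 gate, with a median of 7.95% against 6.80% mitochondrial UMIs. Of the gated cells 4 were among the 630 cells with the highest doublet scores (5.19%), against 0.933% of the Pi16 gate, and 3 of the 4 lay among the 46. The 7 erythroid markers summed to 2055 against 9759 CPM, with cell medians of 889 and 741 CPM, and the 10 macrophage and dendritic markers to 411 against 29.7 CPM. The latter 10 summed to 32.0 CPM within the 46 cells. Within the 3 cells of the Tbata Ccl25 cluster they summed to 8094 CPM, where all but Cd74 were at 0. The part of doublets and of these markers in the ratios was not tested.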

How the data were processed

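The deposited gene matrix holds raw UMI counts per gene and barcode, made by the authors with Cell Ranger 6.0.1 per the file headers, from 10x 3′ libraries per the labels' protocols. The submitters' processing notes also name Seurat 4.0.5 and the build mm10. A second set of rows holds deposited UMI counts of 3 hashtags. Barcodes carry 1 suffix and no library, so the 8 libraries were treated as 1 pool. No cell annotation was used here.

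Hashtags were called with HTODemux (Seurat 5.3.0, R 4.3.3, quantile 0.99), with cutoffs of 129, 765 and 266 UMIs. The 10717 clustered cells gave 26 clusters (scanpy 1.11.5, Leiden resolution 1, 2000 variable genes, 30 components, 15 neighbours). The 17 gate genes, Lum, Cpxm2, and mitochondrial and ribosomal protein genes were left out, as were cells with more than 1 hashtag. Scrublet's automatic threshold marked 1 of 11301 cells and had not worked, so doublets were kept, and leaving out the 630 highest scores was an alternative. Thinning drew 1000 UMIs per cell. Genes at 0 were compared at a floor of 3 UMIs over the gate. TMM factors came from edgeR 4.0.16, with no test. Ratio and interval code was tested on simulated data. Labels gave mice and ages, and a direction by mouse rests on hashtag sets.

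Members and gene lists were chosen with earlier results of these data known. Named genes were those of the rule and label, up to 4 higher and 4 lower per list at 50 CPM and past 2-fold in the same direction in all 3 hashtag sets, elastic fibre, proteoglycan, Hedgehog and thyroid genes at 20 CPM or more, and the extreme genes over all. Genes outside this rule were named after their values were seen. Alternatives changed the gate's thresholds, scaling, filters, hashtag state and cell kinds.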

Additional observations from a re-analysis of the deposited data

How the results depend on the processing

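The ratio of Eln over the Pi16 gate, 2.60 as reported, was 3.09 in cells with no immune UMI, 3.22 in cells with no hashtag, 2.96 after thinning, 1.33 as the mean of the 3 hashtag sets and 1.2003 to 1.499 with 1 set left out. Chosen after seeing the data, it was 4.16 in the fibroblast-like cluster, 3.15 without the mesothelial-like and Tbata Ccl25 cells, 3.38 with cells that also hold Pi16 and 1.17 without the 10 cells with the most Eln. Over smooth muscle, 0.675 as reported, it was 0.609 under 10% mitochondrial UMIs, 0.845 with no hashtag, 0.760 as a mean over cells, 0.554 with TMM scaling, 0.779 thinned, 0.329 over the sets, 0.234 to 0.441 with 1 set left out, 0.817 without mesothelial-like and Tbata Ccl25 cells, 0.877 with Pi16-holding cells, 0.305 without the top 10 cells, and turned to 1.08 in the fibroblast-like cluster. The cause was not tested.

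Genes past 2-fold higher (522) and lower (385) numbered 75 and 249 thinned, where fewer genes were tested, 5840 and 970 with no filter on low counts, 884 and 911 over the 3 sets, 971 to 1185 and 1037 to 1250 with 1 set left out, and 330 and 218 with Pi16-holding cells. TMM scaling gave 417 higher and 469 lower. List genes past 2-fold (120) numbered 64 thinned and 191 unfiltered. The gate held 50 cells with no immune UMI, 46 in the fibroblast-like cluster and 299 with Pi16-holding cells. Its share of fibroblasts was 4.19% for the fibroblast-like cluster, 5.56% without mesothelial-like and Tbata Ccl25 cells and 27.2% with Pi16-holding cells. The share with 1 hashtag was 10.4% at 2 times the cutoff, 15.2%, 16.4% and 15.1% in those 3 sets of cells.

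Of 88 named genes past 2-fold, 86 stayed past 2-fold with TMM scaling, 84 in cells with no hashtag and 67 in the fibroblast-like cluster. The direction was kept by 87 in cells with no hashtag and 82 in the fibroblast-like cluster. TMM scaling moved all log2 ratios alike by -0.15, so it could turn none of the 88. On the log2 scale Rspo1 turned to -0.073 with no hashtag, -1.49 in the fibroblast-like cluster and -1.95 without mesothelial-like and Tbata Ccl25 cells. Adamtsl2 turned to -2.70 over the 3 sets, with -2.60 to -0.84 with 1 set left out, and Cpxm2 ranged over -0.50 to 0.63 with 1 left out. In the fibroblast-like cluster Thbs1 was -0.71, Slc39a8 -0.81, Krt19 -0.85, Hpgd -0.34 and Trf -0.88. Without mesothelial-like and Tbata Ccl25 cells C2 was -0.23, Slc39a8 -1.27 and Krt19 -1.31. No paired analysis was possible because the numbers in the labels belong to libraries that the matrix does not keep apart, and the results come from no test. The gates were paired by mouse only as values of the hashtag sets, with no fit.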
